A study of Mus musculus with 6 samples.

Results

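Transcripts of 9 genes of the ovulatory response of the follicle were examined in mouse oocyte RNA from animals given anti-Müllerian hormone (AMH) and from controls. The genes were chosen by name. Has2, Tnfaip6, Ptx3 and Vcan build and stabilise the cumulus matrix. Ptgs2 makes prostaglandins that cumulus expansion needs, and is grouped with them here as a matrix gene. Areg, Ereg, Btc and Egfr are ligands and the receptor of the epidermal growth factor (EGF) family. Together the genes are 9 of the 54532 in the count table, and all 9 were among the 18868 genes that passed the filter on low counts. RNA sequencing was run on 3 libraries labelled as AMH treated (AMH 1, 2 and 3) and 3 labelled as control (control 1, 2 and 3). All mice were C57BL/6J and 6 to 7 weeks old. Recombinant mouse AMH expressed in E. coli was injected into the abdominal cavity at 300 ng daily from day 21 of age; the labels do not say whether controls were injected, how many oocytes or animals went into a library, or whether cumulus cells were removed. Nothing says that libraries came from separate animals, so a p-value here measures library-to-library spread, part of which may be technical.

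As background, the surge of luteinising hormone makes granulosa cells of the follicle wall produce the EGF-like ligands amphiregulin, epiregulin and betacellulin. These bind the EGF receptor on cumulus cells, the granulosa cells that surround the oocyte. Together with factors that the oocyte secretes, among them GDF9, this signal switches on the synthesis of hyaluronan and of proteins that cross-link it, so that the cumulus mass swells before ovulation. Oocytes themselves make little of this matrix, and its transcripts are usually read as those of cumulus cells.

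The libraries held 66392859 to 69395450 counts with AMH and 69997949 to 72109080 counts in controls. The closest pair of libraries in a chi-square comparison of counts was AMH 3 with control 3, a pair across the groups. All 14 oocyte markers had counts in every library. Their summed level in CPM, the count per unit of library size after TMM scaling (edgeR's correction for composition), was 14540, 13984 and 23818 in AMH 1, 2 and 3, against 28609, 30963 and 24226 in controls 1, 2 and 3. The summed level of 16 granulosa markers, none of them among the 9 genes, was 2547, 2170.0 and 2688 CPM in AMH 1, 2 and 3, against 458, 276 and 2577 CPM in controls 1, 2 and 3. Control 3 thus lay within the AMH range of granulosa markers, and the other control libraries lay far below it. Inha and Gja1 had the highest AMH means of this list, 916 and 780 CPM. In 8 of the 16 markers every AMH library lay above every control, and in 1, Cyp19a1, below. Of all tested genes 26.9% and 23.3% did so. Cyp19a1 had 27.7, 35.1 and 47.1 CPM in AMH 1, 2 and 3, against 59.3, 59.4 and 53.1 CPM in controls 1, 2 and 3. Kitl had a log2 fold change of -0.03. Summed oviduct epithelial markers were 140 to 722 CPM with AMH and 21.1 to 171 CPM in controls, macrophage and leukocyte markers 61.2 to 94.95 and 13.9 to 27.7 CPM, and blood markers 22.8 to 357 and 1.11 to 5.64 CPM. In 6 of the 8 oviduct markers every AMH library lay above every control, as in 26.9% of all tested genes. The groups overlapped for Krt8 and Krt18, which had 80.0 and 64.0 CPM in control 3. In 6 of the 8 macrophage and leukocyte markers every AMH library likewise lay above every control. For Cd68 and Ptprc the groups overlapped, and Ptprc had a log2 fold change of -0.66. Theca and stroma markers were 6.94 to 35.4 CPM with AMH and 4.44 to 29.9 CPM in controls, with Insl3 at 0 counts in all libraries. Endothelial markers were 118 to 191 and 207 to 252 CPM, with Emcn at 0 in all libraries, and ovarian surface markers 29.4 to 81.1 and 34.0 to 41.8 CPM. The endothelial list was split, with every AMH library below every control for Pecam1, Kdr and Flt1, and above for Cdh5. The ovarian surface list was split as well. Every AMH library lay above every control for Krt19, Msln and Krt7, and below for Upk3b and Lrrn4. Of all tested genes 26.9% lay above and 23.3% below in this way. The part of these cell types in the results was not tested.

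The matrix genes were high in AMH 1, AMH 2 and control 3 and low in controls 1 and 2, with AMH 3 between. Has2 (GRCm38 chromosome 15, 56665627 to 56694539), the enzyme that makes the hyaluronan backbone of the cumulus matrix, had 9.55, 14.9 and 4.53 CPM in AMH 1, 2 and 3, against 3.83, 1.90 and 18.8 CPM in controls 1, 2 and 3. The control libraries held both the lowest and the highest Has2 value, so the groups overlapped. Tnfaip6 (chromosome 2, 52038009 to 52056686) encodes the hyaluronan-binding protein TSG-6, which transfers heavy chains of inter-alpha-inhibitor to hyaluronan. It had 148, 153 and 43.5 CPM in AMH 1, 2 and 3, against 24.0, 8.06 and 164 CPM in controls 1, 2 and 3. Control 3 was the highest library, close above AMH 2 and AMH 1, and the other control libraries lay below every AMH library.

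Ptx3 (chromosome 3, 66219910 to 66225805), a pentraxin that links the modified hyaluronan chains, had 21.97, 21.1 and 9.70 CPM in AMH 1, 2 and 3, against 4.30, 3.79 and 48.6 CPM in controls 1, 2 and 3. Control 3 was the highest library for Ptx3 by a wide margin. Vcan (chromosome 13, 89655312 to 89742509), the proteoglycan versican, had 68.6, 101 and 32.3 CPM in AMH 1, 2 and 3, against 10.9, 4.64 and 53.9 CPM in controls 1, 2 and 3. Control 3 lay between AMH 3 and AMH 1. Ptgs2 (chromosome 1, 150100031 to 150108227) is the inducible cyclooxygenase of prostaglandin E2 synthesis, which cumulus expansion needs. It had 71.5, 131 and 22.7 CPM in AMH 1, 2 and 3, against 18.8, 5.16 and 63.3 CPM in controls 1, 2 and 3. For all 5 matrix genes AMH 3 was the fourth highest library, control 1 the fifth and control 2 the sixth; control 3 was the highest for 3 of them, Has2, Tnfaip6 and Ptx3.

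**Figure D1:**
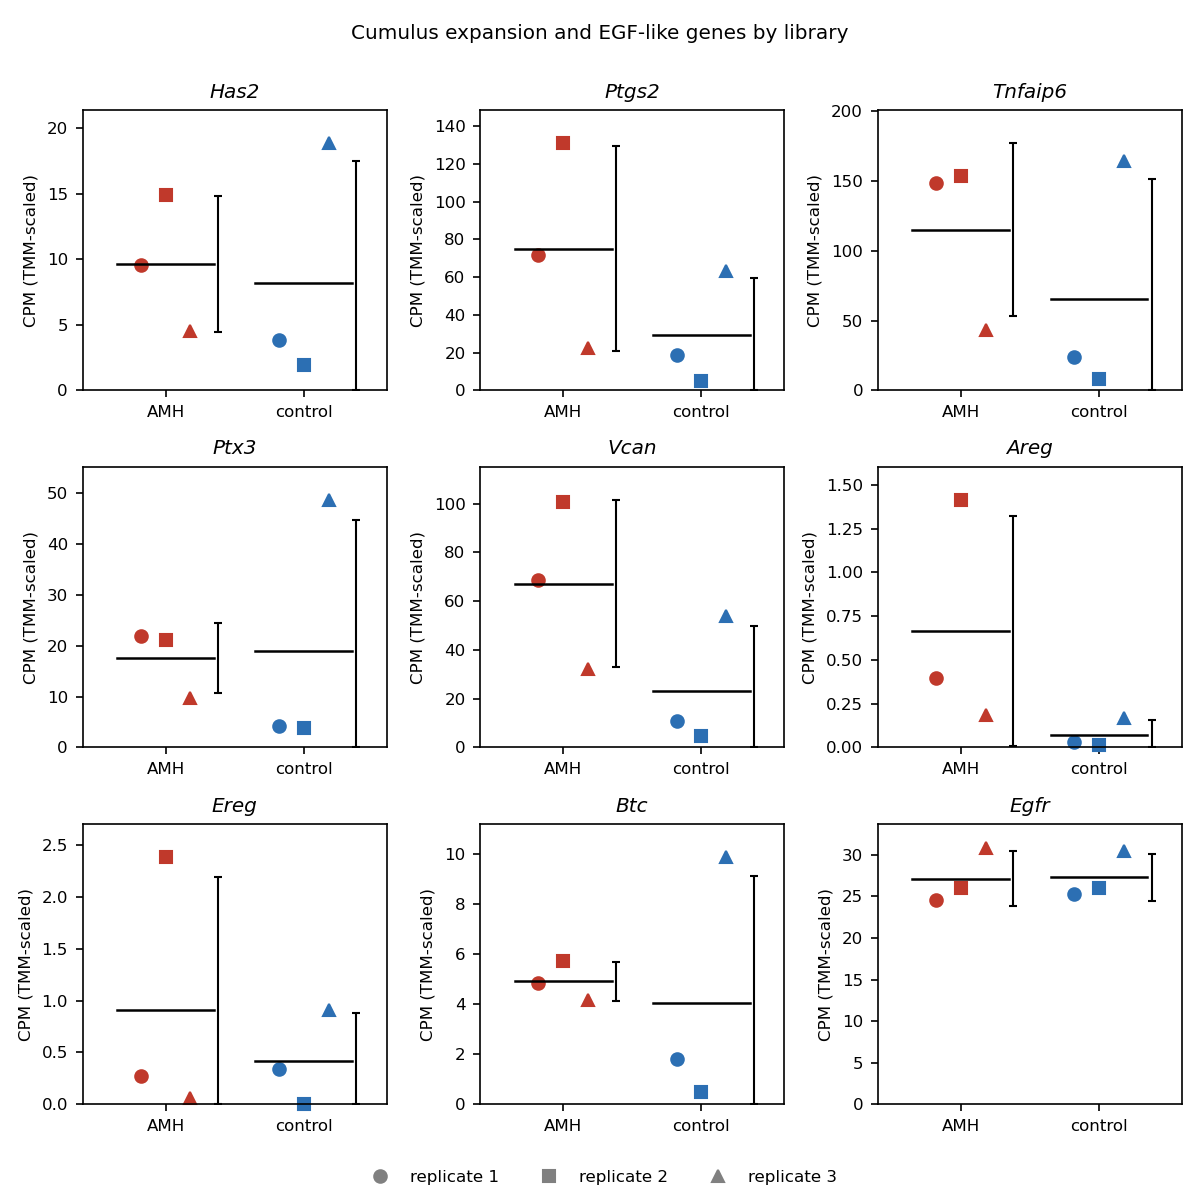
CPM on the TMM-scaled library size of the 9 genes, 1 panel a gene, with the AMH libraries on the left and the control libraries on the right. Symbols are single libraries by replicate number, horizontal lines are group means and the vertical bars are 1 SD to each side, ended at 0. In 8 of the 9 panels the groups overlap, and for the matrix genes control 3 stands far above the other controls. Of all tested genes 26.9% have every AMH library above every control and 23.3% below, and in the rest the groups overlap.

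Matrix genes did not differ past the threshold in any of the 5 cases. The quasi-likelihood test of edgeR, with p-values adjusted by the Benjamini-Hochberg method over all 18868 genes, called 0 of 9 genes of the set and 0% of all genes at 0.05 in either direction. The largest matrix difference was in Vcan, with a log2 fold change of AMH over control of 1.54 ± 0.90 (SE; 95% interval -0.62 to 3.69; edgeR adjusted p = 0.221). Ptgs2 followed with 1.37 ± 0.96 (edgeR adjusted p = 0.288) and Tnfaip6 with 0.81 ± 1.06 (edgeR adjusted p = 0.550). Has2 had 0.24 ± 0.87 (edgeR adjusted p = 0.836). For Ptx3 the value was -0.10 ± 1.00 (edgeR adjusted p = 0.939), and its sign depended on the scaling, with 0.17 when library size alone was used. These intervals leave room for large differences either way: that of Has2 ran from a 0.279-fold to a 4.98-fold level with AMH, and that of Tnfaip6 from 0.306-fold to 10.1-fold. At an unadjusted p under 0.05 edgeR had 0 of the 5 matrix genes, beside 20.2% of all genes higher and 17.3% lower. In bulk RNA fewer cells of a type and less RNA per cell cannot be told apart.

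The spread within groups was wide for the matrix genes, but not for all 9 genes. On the log2 CPM scale the SD over the 3 controls was 2.20 for Tnfaip6, at the 98.3 percentile of all tested genes, and 1.69 for Has2, at the 93.6 percentile. Over the 3 AMH libraries it was 1.03 for Tnfaip6, at the 95.3 percentile, and 0.66 for Ptx3, at the 86.1 percentile. For Btc the SD over the AMH libraries was 0.23, at the 30.4 percentile. From the lowest to the highest library the CPM of the matrix genes spanned 9.91-fold for Has2, 12.8-fold for Ptx3, 20.4-fold for Tnfaip6, 21.7-fold for Vcan and 25.4-fold for Ptgs2.

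Among the EGF-like ligands Areg had the largest difference between the groups, at a very low level. Areg (chromosome 5, 91139599 to 91148432) encodes amphiregulin, the ligand most used as a marker of the ovulatory signal. It had 32, 108 and 12 counts in AMH 1, 2 and 3, against 2, 1 and 11 counts in controls 1, 2 and 3. In CPM these were 0.394, 1.41 and 0.183 with AMH and 0.0310, 0.0156 and 0.167 in controls. All AMH libraries exceeded all controls, a pattern that 26.9% of the tested genes had, but AMH 3 and control 3 were apart by 1 count: the exact 95% Poisson interval was 6.20 to 21.0 counts in AMH 3 and 5.49 to 19.7 counts in control 3. The intervals cover counting error only. Areg had a log2 fold change of 3.19 ± 1.09 (SE; 95% interval 0.57 to 5.80), with an unadjusted p of 0.0238 and an edgeR adjusted p = 0.117, so it did not pass. The lowest adjusted p of any gene was 0.116. DESeq2 put Areg past the threshold (log2 fold change 3.26, DESeq2 adjusted p = 0.0278), where it called 9.01% of the genes as higher and 3.04% as lower, and limma-voom did not (limma-voom adjusted p = 0.0841). Without AMH 2, which held most Areg counts, the log2 fold change was 1.98 (edgeR adjusted p = 0.290).

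Ereg (chromosome 5, 91074622 to 91093646), which encodes epiregulin, depended on 1 library. It had 22, 182 and 4 counts in AMH 1, 2 and 3, against 22, 0 and 60 counts in controls 1, 2 and 3. The 0 of control 2 allows up to 3.69 counts at the upper end of its exact 95% interval. AMH 2 held most of the Ereg counts of its group, and AMH 3 lay below controls 1 and 3. The log2 fold change was 1.11 ± 1.56 (edgeR adjusted p = 0.579), and without AMH 2 it was -1.32 (edgeR adjusted p = 0.575). Btc (chromosome 5, 91357261 to 91402994), which encodes betacellulin, had 4.84, 5.74 and 4.18 CPM in AMH 1, 2 and 3, against 1.81, 0.514 and 9.89 CPM in controls 1, 2 and 3. The AMH libraries were close to each other, with an SD of 0.785 CPM, and the controls enclosed them, with an SD of 5.08 CPM. Btc had a log2 fold change of 0.27 ± 0.94 (edgeR adjusted p = 0.825). The ligand genes lie within 328 kb of each other on chromosome 5.

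To compare levels between genes, the deposited FPKM values were used, which correct for gene length as well as depth. Btc made up most of the FPKM of the ligands in 5 libraries, with 73.3% and 84.8% in AMH 1 and 3, against 78.8%, 89.9% and 85.9% in controls 1, 2 and 3. In AMH 2 it made up 42.2%, with Areg at 38.6% and Ereg at 19.2%. The share of Areg was 22.2%, 38.6% and 13.8% in AMH 1, 2 and 3, against 5.01%, 10.1% and 5.39% in controls 1, 2 and 3. All AMH shares of Areg lay above all control shares, although the control shares rest on 1 to 11 Areg counts. The summed ligand FPKM was 1.45, 2.96 and 1.02 in AMH 1, 2 and 3, against 0.493, 0.122 and 2.41 in controls 1, 2 and 3, so control 3 exceeded AMH 1 and 3.

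**Figure D2:**
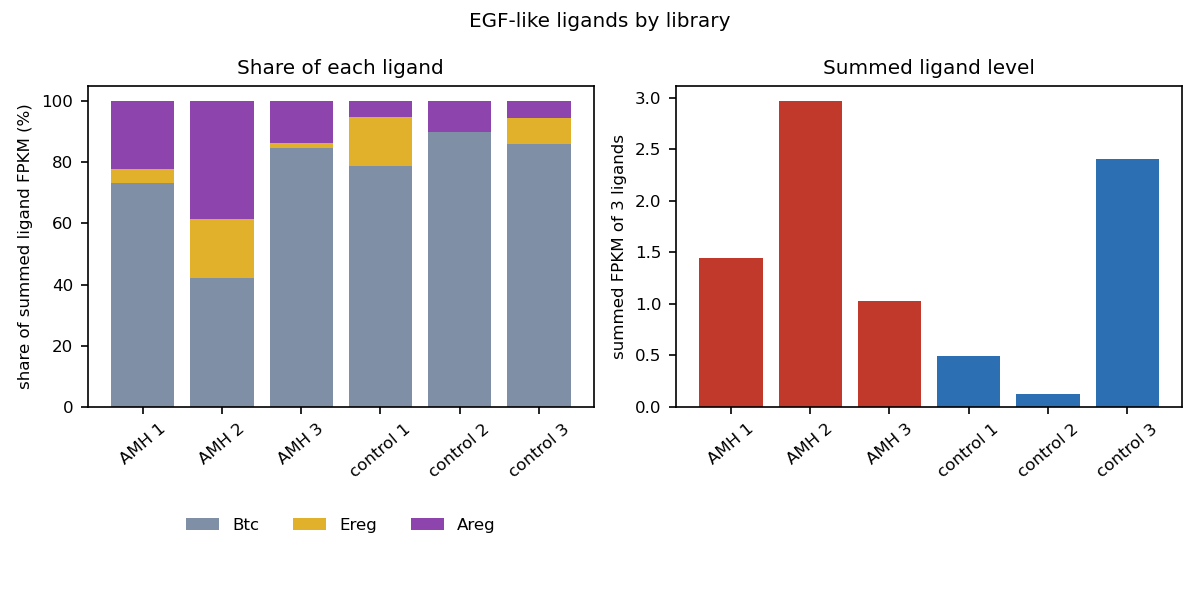
EGF-like ligands by library, AMH libraries left of controls. Left, the share of Btc, Ereg and Areg in their summed FPKM, in percent; right, that sum in FPKM. Areg takes 13.8% to 38.6% in the AMH libraries and 5.01% to 10.1% in the controls, while the sum is 2.96 in AMH 2 and 2.41 in control 3.

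Promoters are shown for the gene with the largest difference, Areg, and for the matrix genes with the highest levels, Tnfaip6 and Ptgs2, whose values moved together over the libraries. The RefSeq table (build GRCm38.p6) held 7 of the 9 genes; Has2 and Ereg were not among them. The stretches end 1 base before the annotated start (for Tnfaip6 before the earlier of the RefSeq and GENCODE starts), are on the plus strand, and are written 5′ to 3′ with motif matches in capitals. They are chr5:91139469-91139598 for Areg, chr2:52037899-52038008 for Tnfaip6 and chr1:150099901-150100030 for Ptgs2.
Areg: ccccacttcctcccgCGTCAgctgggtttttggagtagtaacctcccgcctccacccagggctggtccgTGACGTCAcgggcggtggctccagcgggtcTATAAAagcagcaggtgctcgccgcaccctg
Tnfaip6: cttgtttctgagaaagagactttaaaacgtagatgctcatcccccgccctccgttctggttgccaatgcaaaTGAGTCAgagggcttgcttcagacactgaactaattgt
Ptgs2: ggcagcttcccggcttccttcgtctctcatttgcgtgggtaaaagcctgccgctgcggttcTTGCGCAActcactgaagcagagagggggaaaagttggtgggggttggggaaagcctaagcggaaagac

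The letters searched on both strands in the 250 bases before the RefSeq start were TGACGTCA (the cyclic AMP response element), its core TGACG, TTGCGCAA (a C/EBP palindrome), CACGTG (E-box), TGAGTCA (AP-1) and, for the basal promoter element, TATAAA. Areg held the full response element 61 bases before the start, which the core overlaps, and 1.55% of 32851 promoters in the table held it. It also held a separate core match at 115 bases and a TATAAA match at 31 bases; the core occurred in 17.8% and TATAAA in 12.4% of promoters. Ptgs2 held the C/EBP palindrome at 69 bases, as did 0.164% of promoters, and Tnfaip6 an AP-1 match at 142 bases, as did 4.46%. The RefSeq start of Tnfaip6 lies 104 bases beyond the first base after the printed stretch, in which the match begins 38 bases before the end. Btc held a core match at 113 bases. The windows of Ptx3, Vcan and Egfr held none of these letters, and the E-box, found in 6.02% of promoters, was in no window of the 7 genes. A match describes the letters only.

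Egfr (chromosome 11, 16752203 to 16918158), the receptor through which the ligands act on cumulus cells, did not follow the other genes. It had 24.5, 26.0 and 30.9 CPM in AMH 1, 2 and 3, against 25.3, 26.1 and 30.5 CPM in controls 1, 2 and 3. The groups overlapped almost fully, and the highest library was 1.26-fold above the lowest. The log2 fold change was -0.0077 ± 0.19 (edgeR adjusted p = 0.977), with a sign that turned with the scaling (0.26 without scaling factors, -0.22 by upper quartile) and a 95% interval of 0.724-fold to 1.37-fold. The SD of log2 CPM was 0.17 with AMH and 0.14 in controls, at the 19.2 and 17.9 percentiles of all tested genes. Granulosa marker sums in the same libraries differed by far more, from 276 CPM in control 2 to 2688 CPM in AMH 3.

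In the order of mean FPKM over the 6 libraries Tnfaip6 came first with 51.1 ± 41.1 (SD, n = 6), followed by Ptgs2 with 11.1 ± 10.1. Then came Ptx3 with 6.54 ± 5.96, Vcan with 3.04 ± 2.50, Egfr with 2.31 ± 0.189 and Has2 with 2.03 ± 1.53. Btc with 0.958 ± 0.690, Areg with 0.296 ± 0.431 and Ereg with 0.156 ± 0.215 came last. Tnfaip6 was above Ptgs2, Ptx3 above Vcan, Has2 above Btc and Btc above Areg in all 6 libraries. The order of Ptgs2 and Ptx3 and of Areg and Ereg held in 4 of 6 libraries, and that of Vcan and Egfr and of Egfr and Has2 in 3 of 6. The order of these neighbours thus changed between libraries, and differences between genes were not tested.

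Because granulosa markers differed between libraries, each gene was also set against them, as its CPM per 1000 CPM of the 16 granulosa markers in the same library, as a description with no test. On this scale Has2 was 3.75, 6.85 and 1.69 in AMH 1, 2 and 3, against 8.36, 6.88 and 7.31 in controls 1, 2 and 3. The control libraries lay close to each other here, unlike in CPM, and all AMH libraries lay below them, AMH 2 only just. The share of all genes with this order on this scale was not counted. With library sizes scaled to these markers edgeR called 52.8% of all genes lower with AMH, and the median log2 fold change was -2.33. Tnfaip6 was 58.2, 70.6 and 16.2 in AMH 1, 2 and 3, against 52.5, 29.2 and 63.6 in controls 1, 2 and 3. Its group means were nearly equal, at 48.3 ± 28.5 with AMH and 48.4 ± 17.6 in controls (SD, n = 3 each). Ptx3 averaged 7.31 ± 3.25 with AMH and 14.0 ± 4.75 in controls, and Vcan 28.5 ± 17.2 and 20.5 ± 3.51 (SD, n = 3 each). Ptgs2 averaged 32.3 ± 26.2 with AMH and 28.1 ± 11.5 in controls, and Btc 2.03 ± 0.56 and 3.22 ± 1.18 (SD, n = 3 each). Areg, with 1 to 108 counts per library, had 0.155, 0.651 and 0.0681 in AMH 1, 2 and 3. In controls 1, 2 and 3 Areg had 0.0677, 0.0564 and 0.0647. Ereg averaged 0.409 ± 0.598 with AMH and 0.366 ± 0.372 in controls (SD, n = 3 each).

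The lowest library for all 5 matrix genes on this scale was AMH 3, which had the highest granulosa marker sum. AMH 3 and control 3 had similar granulosa sums, 2688 and 2577 CPM, and similar oocyte sums, 23818 and 24226 CPM. Single granulosa markers differed more than the sum: Fst had 209 and 426 CPM in AMH 3 and control 3, and Inhba 148 and 82.9 CPM. Relative to granulosa markers AMH 3 held 0.191 times the Ptx3 of control 3, 0.231 times its Has2 and 0.254 times its Tnfaip6. It held 0.344 times its Ptgs2 and 0.574 times its Vcan. For Btc the ratio was 0.405, for Areg 1.05 and for Egfr 0.971, and for Ereg, with 4 counts in AMH 3, it was 0.0643. These are ratios of 1 library to 1 library, so they have no replicate check. The part of cell content in them was not tested.

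**Figure D3:**
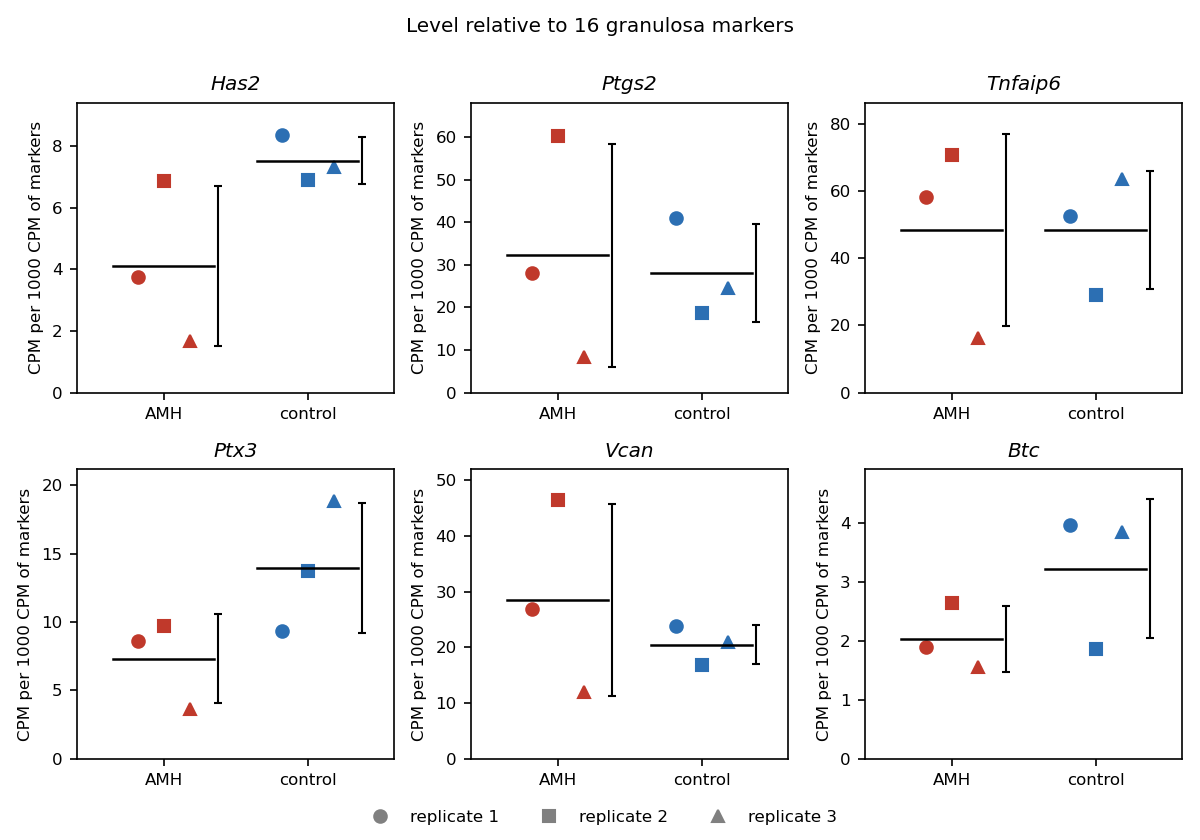
CPM of the 5 matrix genes and Btc per 1000 CPM of 16 granulosa markers, AMH libraries left of controls. Symbols are libraries, lines are means and the bars are 1 SD to each side. For Has2 the controls lie between 6.88 and 8.36 and the AMH libraries between 1.69 and 6.85; AMH 3 is the lowest library in every panel.

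When the library sizes of the edgeR test were scaled to the granulosa markers, the log2 fold changes were 0.47 for Vcan, 0.20 for Ptgs2, -0.0031 for Tnfaip6, -0.88 for Has2 and -0.94 for Ptx3, with edgeR adjusted p from 0.382 to 0.999. Areg had 2.17 (edgeR adjusted p = 0.115), Ereg 0.12 (edgeR adjusted p = 0.946) and Btc -0.67 (edgeR adjusted p = 0.591). The median of all tested genes moved from -0.01 to -2.33 under this scaling. Egfr had -2.28, close to that median, and passed as lower (edgeR adjusted p = 0.0339), as did 52.8% of all genes, while 0.578% passed as higher. Relative to the markers Egfr averaged 11.03 ± 1.24 CPM per 1000 with AMH and 53.8 ± 41.3 in controls (SD, n = 3 each).

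The result for the matrix genes turned on control 3. Without it edgeR called 5 of the 9 genes as higher with AMH, where it called 26.8% of all genes as higher and 11.2% as lower. These were Areg (log2 fold change 4.72, edgeR adjusted p = 0.0303), Vcan (3.10, 0.0189), Tnfaip6 (2.83, 0.0286), Ptx3 (2.11, 0.0187) and Btc (2.07, 0.0328). Ptgs2 had 2.64 (edgeR adjusted p = 0.0509) and Has2 1.74 (edgeR adjusted p = 0.0537), just short of the threshold, and Egfr 0.07 (edgeR adjusted p = 0.783). Without AMH 3 the test called 0 of the 9 genes, beside 1.45% of all genes higher and 6.73% lower. Without AMH 3 and control 3 it called 7 of 9 as higher, beside 29.4% of all genes higher and 21.6% lower, all but Ereg and Egfr. The log2 fold changes of the called genes then ran from 2.12 for Has2 to 5.20 for Areg. AMH 3 and control 3 were the closest pair of libraries across the groups. Leaving out both sets the groups further apart by construction, so these calls are no support for a difference. Granulosa markers move with this choice: the remaining controls had 458 and 276 CPM, against 2170.0 and 2547 CPM in AMH 2 and 1. Their part in the result was not tested.

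**Figure D4:**
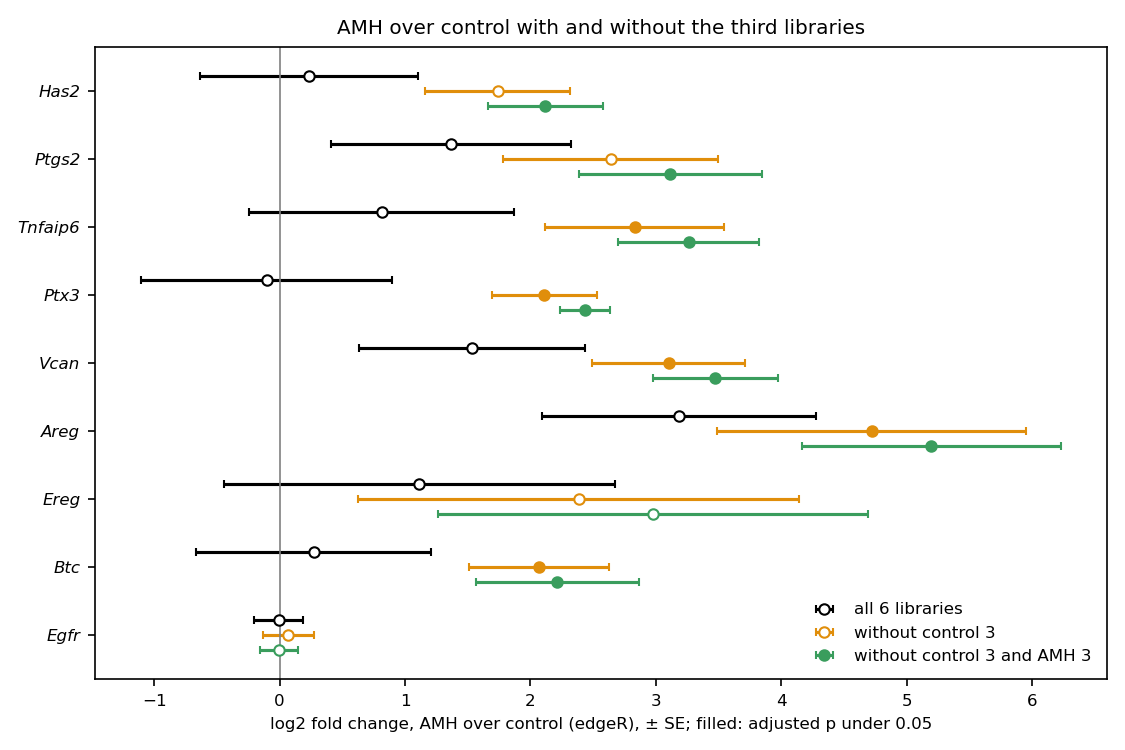
Log2 fold change of AMH over control from edgeR with its SE, for the 9 genes, with all 6 libraries, without control 3, and without control 3 and AMH 3. Filled points have an adjusted p under 0.05. With all libraries no point is filled, and without control 3 those of Tnfaip6, Ptx3, Vcan, Areg and Btc are. Egfr stays near 0 in all 3 fits. The last fit leaves out the closest pair of libraries across the groups, which sets the groups further apart by construction.

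Over the 6 libraries the matrix genes had similar patterns. Pearson's r of log2 CPM was 0.97 between Has2 and Tnfaip6, 0.97 between Ptgs2 and Vcan and 0.84 between Ptgs2 and Ptx3, the lowest value among the matrix genes. Btc had r = 0.95 with Tnfaip6, and Areg had r = 0.93 with Vcan and 0.70 with Ptx3. Egfr had r of -0.04 to 0.41 with the other genes. With the granulosa marker sum r was 0.92 for Vcan, 0.93 for Btc and 0.54 for Ereg, and with the oocyte marker sum it was -0.94 for Areg. These values describe 6 libraries whose cell content differs, as the marker sums show, and 13.9% of the 14133 genes compared had r over 0.9 with Tnfaip6. The genes most like Tnfaip6 were Map3k7, Mmp19 and Sema4c (r = 0.998, 0.997 and 0.994). Those most like Btc were Flnc, Pmepa1 and Stam (r = 0.993, 0.991 and 0.991), and those most like Egfr were Agpat1, Hsd17b12 and Helb (r = 0.994, 0.979 and 0.977).

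**Figure D5:**
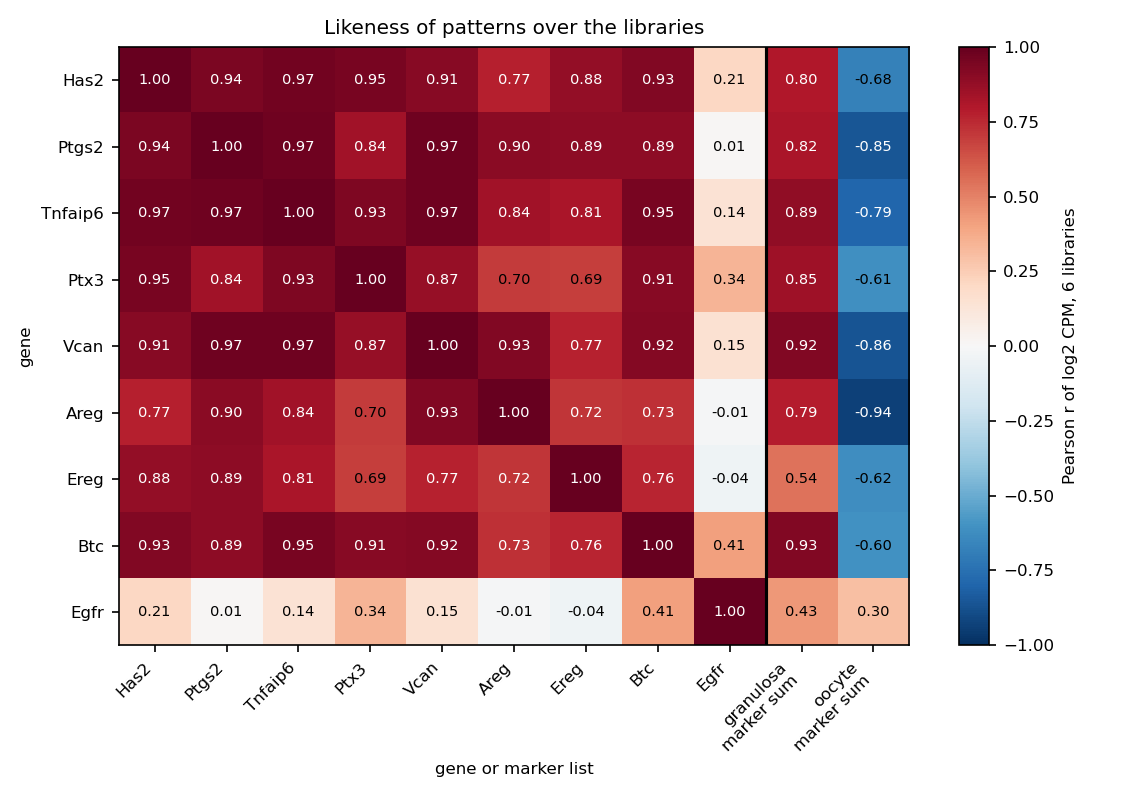
Pearson's r of log2 CPM over the 6 libraries between the 9 genes, and in the last columns with the summed granulosa and oocyte markers. Colour runs from -1 (blue) to 1 (red). The matrix genes have r of 0.84 to 0.97 with each other, and Egfr has r of -0.04 to 0.41 with the other genes.

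Other EGF family genes had for the most part lower values in the AMH libraries, though none passed the test. Among 12 tested ligands, receptors and processing genes the log2 fold change was negative in 9, and its median was -0.35 against -0.01 over all tested genes, and 0 passed edgeR's test. In 7 of the 12 every AMH library lay below every control, as in 23.3% of all genes, and in 1, Tgfa, every AMH library lay above. edgeR had 1 of the 12 higher and 3 lower at an unadjusted p under 0.05, beside 20.2% and 17.3% of all genes. The median was -0.078 without scaling factors, -0.57 by upper quartile and -2.71 with scaling to the granulosa markers, under which the median of all genes also moved. The highest by FPKM were Errfi1, a feedback inhibitor of the EGF receptor, with 60.0, 65.5 and 79.4 FPKM in AMH 1, 2 and 3, against 95.2, 87.8 and 85.0 FPKM in controls 1, 2 and 3. Lrig1, another inhibitor of the receptor, averaged 30.9 ± 1.93 FPKM with AMH and 36.9 ± 3.32 FPKM in controls (SD, n = 3 each). Adam17, the protease that sheds the ligands from the cell surface, had 27.1, 30.3 and 30.2 FPKM in AMH 1, 2 and 3, against 34.7, 37.9 and 33.3 FPKM in controls 1, 2 and 3 (edgeR adjusted p = 0.176).

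Other genes of the hyaluronan matrix had a median log2 fold change of 1.29 over 16 tested of 22, with 13 positive and 0 past the test. In 5 of the 16 (31.25%) every AMH library lay above every control, near the 26.9% of all genes. The median was -0.38 with scaling to the granulosa markers and 2.06 without control 3. On log2(FPKM + 1) it was 0.19, over only the 5 genes that passed the filter of that fit. Adamts1, a protease that cleaves versican, had 23.9, 35.1 and 7.33 FPKM in AMH 1, 2 and 3, against 4.10, 0.466 and 19.4 FPKM in controls 1, 2 and 3. It had the same low AMH 3 and high control 3 as the matrix genes. Hyal2, a hyaluronidase, had 23.2, 17.2 and 15.3 FPKM with AMH, against 3.998, 3.51 and 13.0 FPKM in controls (edgeR adjusted p = 0.121), and Adamts4 averaged 9.26 ± 0.66 FPKM with AMH and 9.13 ± 1.65 FPKM in controls (SD, n = 3 each). Ambp, which encodes the light chain of inter-alpha-inhibitor, had 0 FPKM in all libraries. Of the heavy chain genes, Itih1 was at most 0.0117 FPKM in any library and Itih3 at most 0.134 FPKM. Itih2 had 0.0404, 0.0933 and 0.0692 FPKM in AMH 1, 2 and 3, against 0.00906, 0.0316 and 0.0173 FPKM in controls 1, 2 and 3 (log2 fold change 1.76, edgeR adjusted p = 0.119). These 4 genes were named after their values were seen.

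In prostaglandin synthesis and response 16 of 18 genes were tested, with a median of 0.75 and 0 past the test. Every AMH library lay above every control in 5 (31.25%, against 26.9% of all genes) and below in 3 (18.75%, against 23.3%). The median was -1.06 with scaling to the granulosa markers and 1.25 without control 3. The highest were Ptges3, a cytosolic prostaglandin E synthase, with 26.0 ± 2.37 FPKM with AMH and 33.4 ± 2.33 FPKM in controls, Akr1b3 with 15.6 ± 1.43 and 18.4 ± 3.11 FPKM, and Abcc4, a prostaglandin exporter, with 6.08 ± 0.60 and 7.89 ± 0.74 FPKM (SD, n = 3 each). LH-induced ovulatory genes had a median of 1.27 over 24 tested of 26, with 20 positive and 0 past the test. Every AMH library lay above every control in 1 (4.17%) and below in 4 (16.7%), both under the shares of all genes. The median was -0.073 with scaling to the granulosa markers and 2.15 without control 3. The highest genes of the list were Plat, tissue plasminogen activator, with 918 ± 288 FPKM with AMH and 1407 ± 106 FPKM in controls, and Rgs2, with 204 ± 14.8 and 264 ± 33.5 FPKM (SD, n = 3 each). Both were among the 4 genes with every AMH library below every control, unlike the 20 positive genes of the list. Cyp11a1, the enzyme that starts steroid synthesis, had 404, 437 and 174 FPKM in AMH 1, 2 and 3, against 127, 19.4 and 220.0 FPKM in controls 1, 2 and 3. The oocyte-secreted inducers and their signalling genes had a median of -0.48 over 19 genes, with 15 negative and 0 past the test. In 10 (52.6%) every AMH library lay below every control, against 23.3% of all genes. The median was -0.25 without scaling factors, -0.69 by upper quartile and -2.84 with scaling to the granulosa markers. In that list Gdf9, which induces Has2 and Ptgs2 in cumulus cells, had 2698, 2645 and 4711 FPKM in AMH 1, 2 and 3, against 5388, 5633 and 4673 FPKM in controls 1, 2 and 3. Bmp15 averaged 408 ± 105 FPKM with AMH and 675 ± 94.2 FPKM in controls, and the kinase gene Map2k1 183 ± 42.7 and 258 ± 20.2 FPKM (SD, n = 3 each).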

How the data were processed

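Polyadenylated RNA of mouse oocytes was sequenced in 3 AMH and 3 control libraries. The authors deposited 1 table with raw counts and 1 with FPKM values, both by Ensembl gene. Per the submitters' processing notes, the tools were DESeq2 1.20.0, HISAT2 2.0.5 and featureCounts 1.5.0-p3, with mm10 and GRCm38 as builds; which tool did what, and the strand setting, is not given in the sources used here. A deposited FPKM value is its count over the gene length and over a library size of 0.924 to 1.18 times the count total. Antisense genes overlap Has2, Ptx3, Vcan, Ereg and Egfr, with at most 149 counts per library, and their reads cannot be told apart without strand.

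Counts were tested with edgeR 4.0.16 (R 4.3.3) by the quasi-likelihood test with TMM scaling, the default filterByExpr filter, group as the term and a threshold of 0.05 on the adjusted p over all tested genes. CPM uses the TMM-scaled size, and log2 CPM a prior count of 2. DESeq2 1.42.0, limma 3.58.1 (voom, and log2(FPKM + 1)), other scalings and filters, a replicate block and fits that leave out libraries were alternatives. The scripts were tested on simulated data. Library pairs differed by at least 55.9 chi-square units per degree of freedom, so none was counted as a duplicate.

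The genes and lists were chosen with earlier results of these data known. The 9 genes are given in full. Of each wider list, genes past the test would be named, and since none passed, the 3 of highest mean FPKM were; for likeness, the 3 genes of highest r with the member of highest mean FPKM in each role; others are named after their values were seen.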

Additional observations from a re-analysis of the deposited data

How the results depend on the processing

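Of 19 alternatives 14 called 0 genes, as with TMM. DESeq2 called 3814 genes in all and 9 of the wider lists, scaling to the granulosa markers 10065 and 34, and leaving out control 3 and AMH 3 together 9885 and 53; leaving out 1 library gave 0 to 7513 genes and 0 to 34 of the wider lists. Vcan, Ptgs2 and Areg kept a positive log2 fold change in every alternative that gave one. Scaling to the granulosa markers turned Btc (-0.67), Has2 (-0.88) and Tnfaip6 (-0.0031). Ptx3 was positive with limma-voom (0.85), library size only (0.17), log2(FPKM + 1) with and without a filter (0.56 each), log2(FPKM + 0.1) (0.81) and without AMH 3 and control 3 (2.43). Egfr was positive with DESeq2 (0.0098), RLE scaling (0.0081), library size only (0.26), log2(FPKM + 1) with and without a filter (0.0068 each) and log2(FPKM + 0.1) (0.0092). Leaving out 1 library gave -0.26 to 2.07 for Btc, -0.24 to 1.74 for Has2, -0.60 to 2.11 for Ptx3, -0.14 to 0.071 for Egfr and -1.32 to 2.38 for Ereg. The cause was not tested. The median of all genes was 0.26 with library size only and -0.23 with upper-quartile scaling. With the replicate block edgeR called 0 genes and Ptx3 had 1.12. Deviations from the group mean correlated at 0.10, -0.16 and -0.38 between libraries of the same number (pairs 1, 2 and 3). Not every library correlated best with its own number. These values cannot decide whether libraries of the same number shared a batch, because AMH 3 and control 3 each lay towards the other group. The labels give only the number. Areg and Ereg rest on 0 to 182 counts per library.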

Other observations

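Some genes of the same pathways had AMH 3 above every control, unlike Ptgs2, and are named after their values were seen. Ptges, the inducible prostaglandin E synthase that works with Ptgs2, had 4.37, 4.51 and 3.41 FPKM in AMH 1, 2 and 3, against 0.680, 0.282 and 3.19 FPKM in controls 1, 2 and 3 (edgeR adjusted p = 0.195). Ptger2, a prostaglandin E2 receptor of cumulus cells, had 1.00, 0.915 and 1.79 FPKM with AMH, against 0.234, 0.173 and 0.831 FPKM in controls (edgeR adjusted p = 0.138). Hpgd, which breaks prostaglandins down, had 4.02, 3.57 and 5.84 FPKM with AMH, against 0.731, 0.213 and 2.96 FPKM in controls (edgeR adjusted p = 0.17). They were picked because every AMH library lay above every control, as in 26.9% of all tested genes, and AMH 3 was the highest library for Ptger2 and Hpgd.

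Of the ovulatory list Fos, Egr1 and Junb, immediate-early genes picked after their values were seen, were highest in AMH 1 and 2, with AMH 3 below controls 1 and 3. Dusp1, another immediate-early gene of that list, did not have this pattern, with 139, 122 and 125 FPKM in AMH 1, 2 and 3, against 156, 154 and 139 FPKM in controls 1, 2 and 3. Fos had 93.4, 147 and 13.7 FPKM in AMH 1, 2 and 3, against 35.9, 11.8 and 40.4 FPKM in controls 1, 2 and 3 (edgeR adjusted p = 0.203). Egr1 had 90.7, 101 and 13.7 FPKM with AMH, against 28.4, 12.02 and 29.5 FPKM in controls (edgeR adjusted p = 0.156). Junb had 157, 184 and 29.9 FPKM with AMH, against 49.0, 9.95 and 45.1 FPKM in controls (edgeR adjusted p = 0.143). Pgr, the progesterone receptor that the ovulatory surge induces in the follicle wall, was at most 0.0356 FPKM in any library and was not tested.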
